A study of Mus musculus with 14 samples.

Results

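The genes described here encode enzymes that place or remove histone marks and the ATP-driven machines that move nucleosomes, and the question asked of each was where meiotic DNA double-strand breaks (DSBs) were mapped on it, in mice with and without the remodeler HELLS in spermatocytes. They were chosen by symbol alone, as the protein-coding genes of GENCODE M21 whose names begin with Kmt (lysine methyltransferases), Kdm (lysine demethylases), Kat and a number (lysine acetyltransferases), Hdac (histone deacetylases), Smarc (subunits of SWI/SNF-type remodelers and related ATPases) or Chd and a number (chromodomain helicases). This gave 68 of 21938 protein-coding genes, with 8 Kmt, 18 Kdm, 8 Kat, 11 Hdac, 13 Smarc and 10 Chd genes. No measured value entered the rule, though earlier results of these data were known when it was chosen. A Hells cKO peak lay at a transcript start of 54 of these genes (79.4%), against 45.2% of all protein-coding genes. Hells CTRL peaks were found mainly inside the gene bodies, with 38 there and 8 at starts. The same held over all protein-coding genes, with 5338 and 582. The strongest Hells CTRL peaks inside these genes, in Hdac9, Hdac8 and Kdm6a, were among the strongest 42 peaks of that list.

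DSBs were mapped by DMC1 ChIP-SSDS, in which DMC1, the recombinase that coats resected DSB ends, is immunoprecipitated from whole testis of adult mice and the single-strand DNA it holds is sequenced. Hells CTRL mice had the genotype Hellsfl/Δ and were 5 weeks old, with 2 testes pooled for each replicate, and Hells cKO mice had the genotype Hellsfl/Δ;Stra8-iCre and were 9 weeks old, with 3 testes pooled for each replicate. The animals of both groups therefore carried 1 floxed and 1 deleted Hells allele, were derived from a C57BL/6N line and expressed the Dom2 variant of PRDM9, and in the cKO the floxed allele was removed only where the Stra8 promoter had driven Cre in male germ cells, so that spermatocytes that still hold HELLS can remain in the testis. Each genotype had 2 replicates, which the authors pooled to make 1 final list of peaks, with 11133 peaks for Hells CTRL and 17117 for Hells cKO, so age and genotype cannot be told apart and no comparison between mice could be tested. The number of reads behind a peak is unknown, no peak of either list was on chromosome Y, and a gene without a listed peak may still hold breaks too weak to be called.

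In mouse meiosis most DSBs form where the zinc fingers of PRDM9 bind DNA and its methyltransferase domain adds H3K4me3 and H3K36me3 to the flanking nucleosomes, usually away from promoters. HELLS is a SNF2-family ATPase that acts with PRDM9 to open chromatin at these sites. Without PRDM9 the breaks form at other places that carry H3K4me3, among them promoters. The value given to each peak is its strength, the score of the authors, which derives from the fragments counted at the peak. Strengths of both lists were not scaled to each other, so each is given with its percentile within its own list, from 0 for the weakest to 100 for the strongest. A peak was placed by its center. It was called a start peak when the center lay within 1 kb of any annotated transcript start of the gene, and a body peak when it lay inside the gene and over 1 kb from every start of that gene.

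Sequences below come from start peaks of Hells cKO and body peaks of Hells CTRL, so list and position differ together. The first 3 sequences are from Hells cKO start peaks, the strongest (Kmt2e, strength 469), one from the middle of the range (Kat6b, strength 45, just below the median of 49) and the weakest (Hdac5, strength 8). The next 2 are from the strongest Hells CTRL body peaks (Hdac9, strength 2132, and Hdac8, strength 2032), both in introns. The Hells cKO list also held a peak at both of these places, with strengths of 61 and 60. Each is the plus strand of GRCm38 (RefSeq) over up to 200 bp around the peak center, without bases of annotated UTRs, and capitals mark CpG dinucleotides.
Kmt2e, chr5:23434251-23434440: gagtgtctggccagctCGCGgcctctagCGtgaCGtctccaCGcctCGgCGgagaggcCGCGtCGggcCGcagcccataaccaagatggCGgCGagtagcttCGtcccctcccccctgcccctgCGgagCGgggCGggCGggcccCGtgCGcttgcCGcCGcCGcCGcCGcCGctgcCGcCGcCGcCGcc
Kat6b, chr14:21499665-21499769: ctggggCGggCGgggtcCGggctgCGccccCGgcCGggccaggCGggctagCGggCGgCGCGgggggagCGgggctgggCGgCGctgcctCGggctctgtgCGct
Hdac5, chr11:102229729-102229928: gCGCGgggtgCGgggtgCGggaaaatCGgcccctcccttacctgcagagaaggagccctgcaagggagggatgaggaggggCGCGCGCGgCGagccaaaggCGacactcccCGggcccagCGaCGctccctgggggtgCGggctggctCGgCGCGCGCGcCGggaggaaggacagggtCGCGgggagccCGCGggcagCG
Hdac9, chr12:34595105-34595304: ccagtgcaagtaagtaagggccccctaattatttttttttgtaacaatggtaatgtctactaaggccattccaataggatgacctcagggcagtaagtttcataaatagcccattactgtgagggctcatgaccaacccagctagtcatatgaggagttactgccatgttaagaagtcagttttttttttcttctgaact
Hdac8, chrX:102312388-102312587: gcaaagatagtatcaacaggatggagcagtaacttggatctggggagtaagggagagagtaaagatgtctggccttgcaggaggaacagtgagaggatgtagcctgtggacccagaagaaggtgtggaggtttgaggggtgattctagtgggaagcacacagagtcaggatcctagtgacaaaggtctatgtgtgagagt
The Kmt2e window of 190 bp held 30 CpG, the Kat6b window of 105 bp held 16, and the Hdac5 window of 200 bp held 26. The 200 bp windows of the Hdac9 and Hdac8 peaks held 0 CpG each.

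Hells cKO start peaks were found at 54 of the 68 genes (79.4%), against 45.2% of all protein-coding genes. Each family had such a peak in most of its genes. The shares were 7 of 8 Kmt genes (87.5%), 11 of 13 Smarc genes (84.6%), 15 of 18 Kdm genes (83.3%), 8 of 10 Chd genes (80.0%), 6 of 8 Kat genes (75.0%) and 7 of 11 Hdac genes (63.6%). When only the 5' end of the gene record was used in place of every annotated start, the count was 46 genes (67.6%), against 40.9% of all protein-coding genes. The 54 genes held 59 start peaks, since Chd8, Chd9, Smarcc1, Smarca2 and Kdm2a each held 2. Centers lay at a median of 169 bp from the nearest start, against 152 bp for the 9303 start peaks of all protein-coding genes, and 54 of the 59 were within 500 bp. A start of another gene lay within 1 kb of 18 of the 59 centers, and at 5 of them (Kdm5a with Ccdc77, Kdm4d with Cwc15, Smarcc1 with Dhx30, Kat14 with Pet117 and Kdm1b with Tpmt) that gene was also protein-coding, so these peaks cannot be assigned to 1 of the neighbours.

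**Figure D1:**
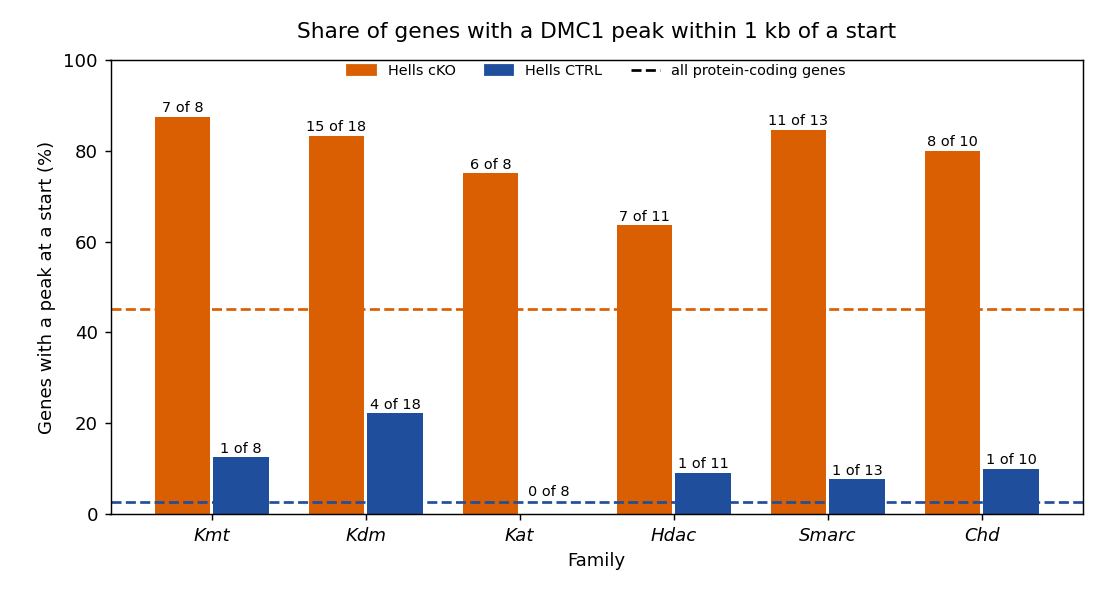
Share of genes (%) with a DMC1 peak center within 1 kb of an annotated start, by family, in the Hells cKO list (orange) and the Hells CTRL list (blue), with counts over the bars and dashed lines at the shares of all protein-coding genes (45.2% and 2.68%). The orange bars of all 6 families stand above their line, from 63.6% for Hdac to 87.5% for Kmt, and no Kat gene had a Hells CTRL start peak.

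The strengths of the 59 start peaks ranged from 8 to 469, with a median of 49 and quartiles of 31 and 105.5. Over the start peaks of all protein-coding genes the median was 45. The median percentile within the list was 67.8 for the 59 peaks and 64.9 for all start peaks, so the typical peak at these genes was about as strong as at other genes. At the upper end, 14 of the 59 (23.7%) were in the top 10% of the list, as were 16.3% of all start peaks. The median over genes of the strongest start peak was 93.5 for Chd, 82 for Kdm, 62 for Kmt, 55 for Hdac, 42 for Kat and 38 for Smarc, and 48 over all protein-coding genes with a start peak.

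Among the methyltransferase genes, the peak of Kmt2e, which encodes a SET domain protein of the MLL group, was the strongest of the 59. It spanned chr5:23432374-23436329, reached a strength of 469 and ranked 25 of 17117 (percentile 99.9), with its center 90 bp upstream of the gene. Kmt2c, a catalytic subunit of the COMPASS-like complexes that methylate H3K4 at enhancers, had the next strongest peak, at chr5:25496853-25500580, with a strength of 205 (percentile 97.1) and a center 14 bp from a start. A start of another gene that is not protein-coding, 5031425E22Rik and 4831440E17Rik respectively, lay within 1 kb of each. The peaks of the other Kmt2 genes were weaker, at 49 for Kmt2b and 45 for Kmt2d, and Kmt2a had no start peak. All 3 H4K20 methyltransferase genes had one, with strengths of 31 (Kmt5a), 62 (Kmt5b) and 77 (Kmt5c).

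Of the demethylase genes, both flavin-dependent enzymes had peaks near the middle of all start peaks, 45 for Kdm1a and 41 for Kdm1b (percentiles 49.8 and 45.9 among start peaks, and 64.9 and 61.4 in the list). Among the JmjC enzymes, 13 of 16 had a start peak. Kdm6a, the X-linked H3K27 demethylase, led them at chrX:18161389-18164496, with a strength of 204 (percentile 97.1) and a center 294 bp downstream of a start. Kdm4c, which acts on H3K9 and H3K36, followed at chr4:74250975-74253400 with 169 (percentile 95.1). Its center lay 251 bp from a start and 9.69 kb inside the gene record. A start of A230083N12Rik, which is not protein-coding, also lay within 1 kb of it. The rest had 120 (Kdm7a), 111 (Kdm5a), 100 (Kdm4d), 95 (Kdm2a), 89 (Kdm5b), 82 (Kdm3a) and 54 (Kdm3b). Lower down were 27 (Kdm5c), 23 (Kdm4a), 21 (Kdm8) and 15 (Kdm4b). Kdm2a held a second start peak of 12 (percentile 7.97), the weakest of the demethylase genes. Close relatives thus lay far apart in the list, as in the Kdm4 group from 15 to 169.

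In the acetyltransferase genes the range was narrower. Kat6a, a MYST enzyme that acetylates H3, had 131, its paralog Kat6b had 45, Kat14 and Kat8 had 42 each, Kat2b had 36 and Kat7 had 21. Among the deacetylase genes, Hdac6, whose product acts largely on tubulin in the cytoplasm, had the strongest peak at 146, and Hdac2, a catalytic subunit of the Sin3, NuRD and CoREST complexes, had 124. The paralog Hdac1 had 55. Class IIa enzymes, which shuttle between nucleus and cytoplasm, had 58 (Hdac9), 35 (Hdac4) and 8 (Hdac5). The Hdac5 peak, at chr11:102229020-102230639, ranked 16987 of 17117 (percentile 0.511) and was the weakest of the 59, with its center 295 bp downstream of a start. Hdac8 had 20.

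All 6 ATPase genes of the Smarc group had a start peak. Smarcad1, a remodeler linked to the upkeep of heterochromatin, had the strongest, at chr6:65041907-65043920, with a strength of 169 (percentile 95.1) and a center 34 bp from a start. Smarca5, the ISWI ATPase SNF2H, had 120, and Smarca2, an ATPase of the BAF complexes, had 75 and 26 at 2 starts. The other BAF ATPase, Smarca4, had 31, Smarca1 had 34, and Smarcal1, an annealing helicase of stalled replication forks, had 10 (chr1:72582977-72584402, percentile 3.03, 74 bp from a start). Among the non-catalytic subunits, 5 of 7 genes had start peaks, with 92 for Smarce1, 55 and 35 for Smarcc1, 38 for Smarcb1, 26 for Smarcd2 and 16 for Smarcd3.

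The Chd genes had several of the stronger peaks. Chd9 had 177 (percentile 95.7) at chr8:90907227-90909772, with its center 115 bp from a start and 80.1 kb inside the gene record. A second Chd9 peak had 10 (chr8:90954696-90955987, percentile 3.03, 71 bp from a start). Chd6 had 160, Chd8 had 128 and 36, and Chd2 had 125. Starts of Gm6658, Gm45447 and Gm44686, which are not protein-coding, lay within 1 kb of the Chd9 peak of 177 and the Chd6 and Chd2 peaks, respectively. Of the NuRD ATPases, Chd3 had 62 and Chd4 had 22. Chd1, which binds H3K4me3 through its chromodomains, had 61, and Chd1l had 42.

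**Figure D2:**
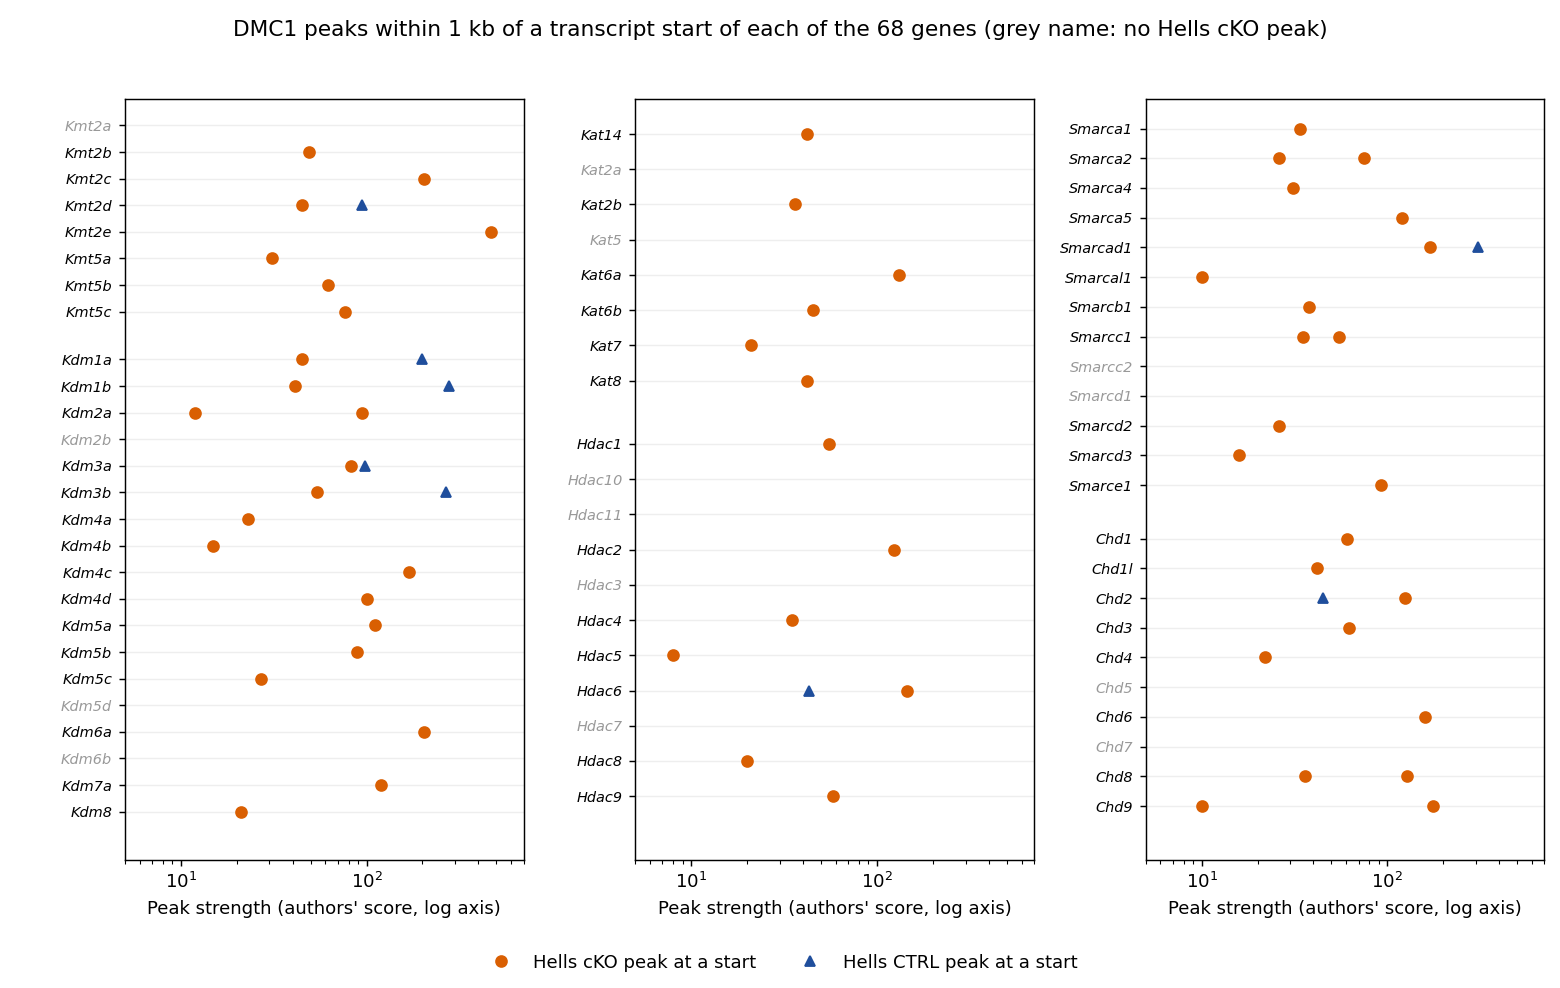
Strength (authors' score, log axis) of each start peak of the 68 genes, 1 row per gene and ordered by family, with orange circles for the Hells cKO list and blue triangles for the Hells CTRL list. Hells cKO circles run from 8 (Hdac5) to 469 (Kmt2e), 14 genes named in grey have none, and 8 genes also carry a triangle.

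Without a Hells cKO start peak were 14 genes, and they were spread over all families. They were Kmt2a, the demethylase genes Kdm2b, Kdm5d and Kdm6b, the acetyltransferase genes Kat2a and Kat5, the deacetylase genes Hdac3, Hdac7, Hdac10 and Hdac11, the subunit genes Smarcc2 and Smarcd1, and Chd5 and Chd7. Kdm5d is on chromosome Y, which neither list covers. For the other 13 the nearest Hells cKO center lay between 1.98 kb (Kat5) and 92.6 kb (Kat2a) from a start. Only Kat5 came within 2 kb. Hdac10 followed at 2.89 kb, Kdm6b at 3.27 kb, Hdac3 at 8.71 kb, Chd7 at 11.1 kb, Chd5 at 12.5 kb, Smarcd1 at 18.1 kb, Hdac7 at 25.2 kb, Kdm2b at 30.9 kb, Kmt2a at 39.4 kb, Hdac11 at 39.96 kb and Smarcc2 at 82.0 kb. For 10 of the 14 (all but Chd7, Kdm2b, Kdm6b and Smarcd1) neither list held a start or body peak.

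Many of these genes had CpG-dense starts. Counted within 250 bp of the most CpG-rich start of each gene, the median was 52.5 CpG for the 54 genes with a start peak and 49 for the 14 without. Other windows set these medians further apart, at 90.5 and 71 within 500 bp, and at 40.5 and 30.5 around the 5' end of the gene record. Among the 14 genes the count at the richest start was 96 for Chd7, 82 for Smarcc2, 75 for Kdm2b, 73 for Chd5 and 65 for Kmt2a. At the lower end it was 25 for Kdm6b, 27 for Kdm5d, 31 for Hdac3, 32 for Hdac10 and 33 for Kat2a. Over all protein-coding genes the medians at the richest start were 45 with and 11 without a start peak. The 68 genes were CpG-rich as a group, with 20 or more CpG in 67 of them (98.5%) against 61.8% of all protein-coding genes. They also had more annotated starts, at a median of 7 against 3.

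In the 3 classes with most CpG, which hold all but 1 of the genes, shares lay nearer to the background than the overall share did. With 40 or more CpG, 41 of 49 genes (83.7%) had a Hells cKO start peak, against 73.5% of all protein-coding genes in that class. With 30 to 39 CpG the figures were 8 of 12 (66.7%) and 66.3%, and with 20 to 29 CpG they were 4 of 6 (66.7%) and 50.2%. In the class of 10 to 19 CpG the 1 gene, Hdac8, had a start peak, against 21.4%. In classes by the number of starts, the gap was smaller with many starts than with few, with 15 of 18 genes (83.3%) against 72.3% at 10 or more starts, 29 of 36 (80.6%) against 64.8% at 5 to 9, and 10 of 14 (71.4%) against 39.6% at 2 to 4. Both properties moved with the share of genes with a peak, and their part in it was not tested.

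**Figure D3:**
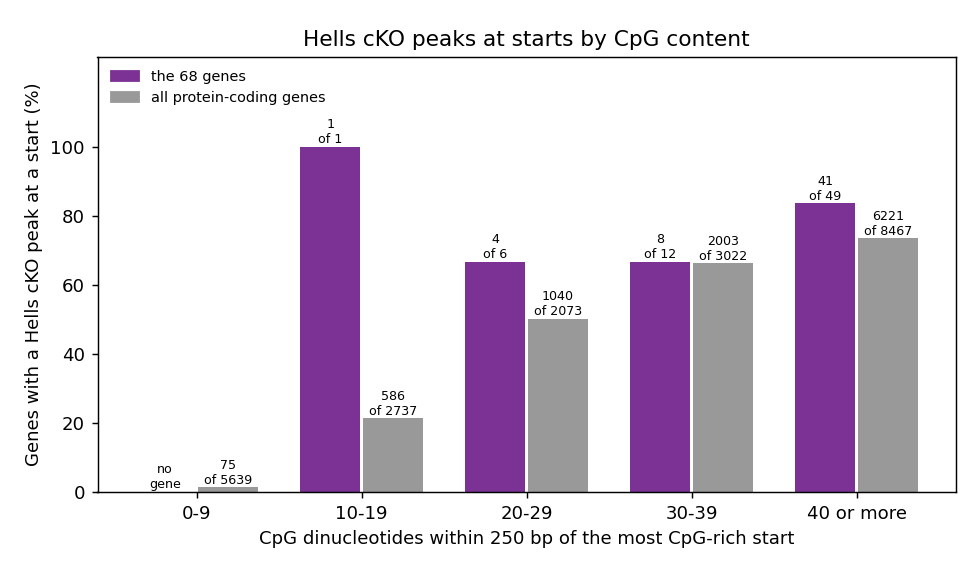
Share of genes (%) with a Hells cKO start peak by CpG count in the 250 bp to either side of the most CpG-rich start, for the 68 genes (purple) and all protein-coding genes (grey), with counts over the bars. The grey bars rise from 1.33% below 10 CpG to 73.5% at 40 or more, where 49 of the 68 genes lie.

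The sequence at the start peaks was that of CpG-rich promoters. Within 250 bp of the 59 centers there was a median of 51 CpG, against 41 at all start peaks and 24 over the whole Hells cKO list. The GC box GGGCGG, on either strand within 100 bp of the center, was present at 35 of the 59 (59.3%), at 49.3% of all start peaks and at 33.1% of the whole list. It was present at 0 of the 46 Hells CTRL peaks of these genes and at 2.52% of the Hells CTRL list. These 46 peaks comprised 8 at starts and 38 in bodies.

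Hells CTRL start peaks were found at 8 of the 68 genes (11.8%), against 2.68% of all protein-coding genes. All but that of Hdac6 lay at internal starts, from 19.6 to 39.4 kb downstream of the 5' end of the gene record. Each of the 8 genes also had a Hells cKO start peak. Of the 587 protein-coding genes with a Hells CTRL start peak, 444 had one too. Smarcad1 had the strongest, at chr6:65074411-65076526, with a strength of 307 (percentile 88.6). It was 32.9 kb into the gene, in an intron, while the Hells cKO peak lay 0.330 kb from the 5' end. Kdm1b had 279 (percentile 86.8) at chr13:47061966-47064133, over a coding exon 19.6 kb in. Kdm3b had 269 (percentile 86.2), 36.8 kb in, and Kdm1a had 200 (percentile 80.6) at chr4:136577056-136578845, 24.8 kb in. Both flavin-dependent demethylase genes were thus in this group.

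Weaker Hells CTRL start peaks lay at 4 genes. Kdm3a, an H3K9 demethylase, had 98 (percentile 63.1) at chr6:71602938-71604655, 29.2 kb in, and Kmt2d had 95 (percentile 62.2) at chr15:98848378-98850035, 22.0 kb in. Chd2 had 45 (percentile 37.7) at chr7:73501306-73503509, 39.4 kb in. Hdac6 had 43 (percentile 35.9) at chrX:7946530-7949023, 0.113 kb from its 5' end. The 8 peaks had a median of 5.5 CpG within 250 bp, against 8 at the Hells CTRL start peaks of all protein-coding genes and 51 at the 59 Hells cKO start peaks, and Hdac6 (33) and Kdm1b (23) were the richest. Over protein-coding genes with 10 or more annotated starts, 8.06% had a Hells CTRL start peak, as did 3 of the 18 genes of this class (16.7%). With 5 to 9 starts the figures were 3.48% and 5 of 36 genes (13.9%). When only protein-coding transcripts were counted, 4 of the 8 genes were left, and with the 5' end of the gene record only Hdac6 was left.

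Inside gene bodies, Hells CTRL peaks were found in 19 of the 68 genes (27.9%), against 16.2% of all protein-coding genes. These genes are long, with a median of 50.4 kb against 17.4 kb, and their bodies together covered 4.94 Mb. The 38 body peaks gave 7.69 peaks per Mb, against 5.50 over all protein-coding genes. Longer genes held one more often, here as in the whole annotation. Of genes of 200 kb or more, 4 of 5 (80.0%) had one, against 82.0% of all protein-coding genes of that length, and at 100 to 200 kb the figures were 6 of 10 (60.0%) and 57.0%. From 50 to 100 kb they were 4 of 19 (21.1%) and 31.8%, and below 50 kb 5 of 34 (14.7%) and 6.44%. Hdac9 and Chd9 held 5 peaks each, Kmt2c held 4, and Hdac8, Chd7 and Kdm2b held 3 each. The median strength was 69 (percentile 52.8), against 67 (51.7) for the body peaks of all protein-coding genes. Of the 38 centers, 35 were in introns. The intron share was not counted over all protein-coding genes, so this count has no background.

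The strongest Hells CTRL body peak was in Hdac9, a class IIa deacetylase gene of 869.5 kb. It spanned chr12:34594131-34596280, 322 kb from the 5' end, with a strength of 2132, rank 23 of 11133 (percentile 99.8). Hdac8, a class I deacetylase gene, held the next one at chrX:102311281-102313696, 193 kb in, with 2032 (rank 27, percentile 99.8). In Kdm6a a peak of 1708 (rank 42, percentile 99.6) lay at chrX:18253687-18256208, 92.4 kb in. All 3 were in introns, and they stood well above the other body peaks of these genes. Chd9 followed with 687 (percentile 97.0) at chr8:90960873-90962780, and Hdac9 again with 612 (percentile 96.4) at chr12:34866268-34868139. Of the 38 peaks, 8 (21.1%) were in the top 10% of the list, as were 10.9% of the body peaks of all protein-coding genes, and those 8 came from 5 genes, Hdac9, Chd9, Hdac8, Kdm6a and Kdm2b. The weakest was in Kdm2a, with 21 (percentile 8.40).

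Hells cKO body peaks were fewer. They were found in 9 of the 68 genes (13.2%), against 10.3% of all protein-coding genes, with 17 peaks in all, or 3.44 per Mb against 3.18. Their median strength was 23 (percentile 37.0), equal to that of all body peaks of that list. The strongest was in Chd7, the ATPase gene mutated in CHARGE syndrome, in a coding exon, with a strength of 250 (percentile 98.4), although Chd7 had no peak at its CpG-dense starts. Kdm6b, an H3K27 demethylase gene also without a start peak, held 80 (percentile 81.4) at chr11:69397478-69400211, where the start of Tmem88 lies within 1 kb, and 50 (percentile 68.5) at chr11:69408653-69412156, 3.27 kb in. Hdac9 held 61 (percentile 74.5) at chr12:34594302-34596089 and 5 weaker ones from 11 to 35. Hdac8 held 60 (percentile 74.0) at chrX:102311711-102313610. The remaining body peaks, in Kdm6a, Chd9, Kmt2c, Smarcd3 and Smarca2, had strengths from 12 to 33.

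**Figure D4:**
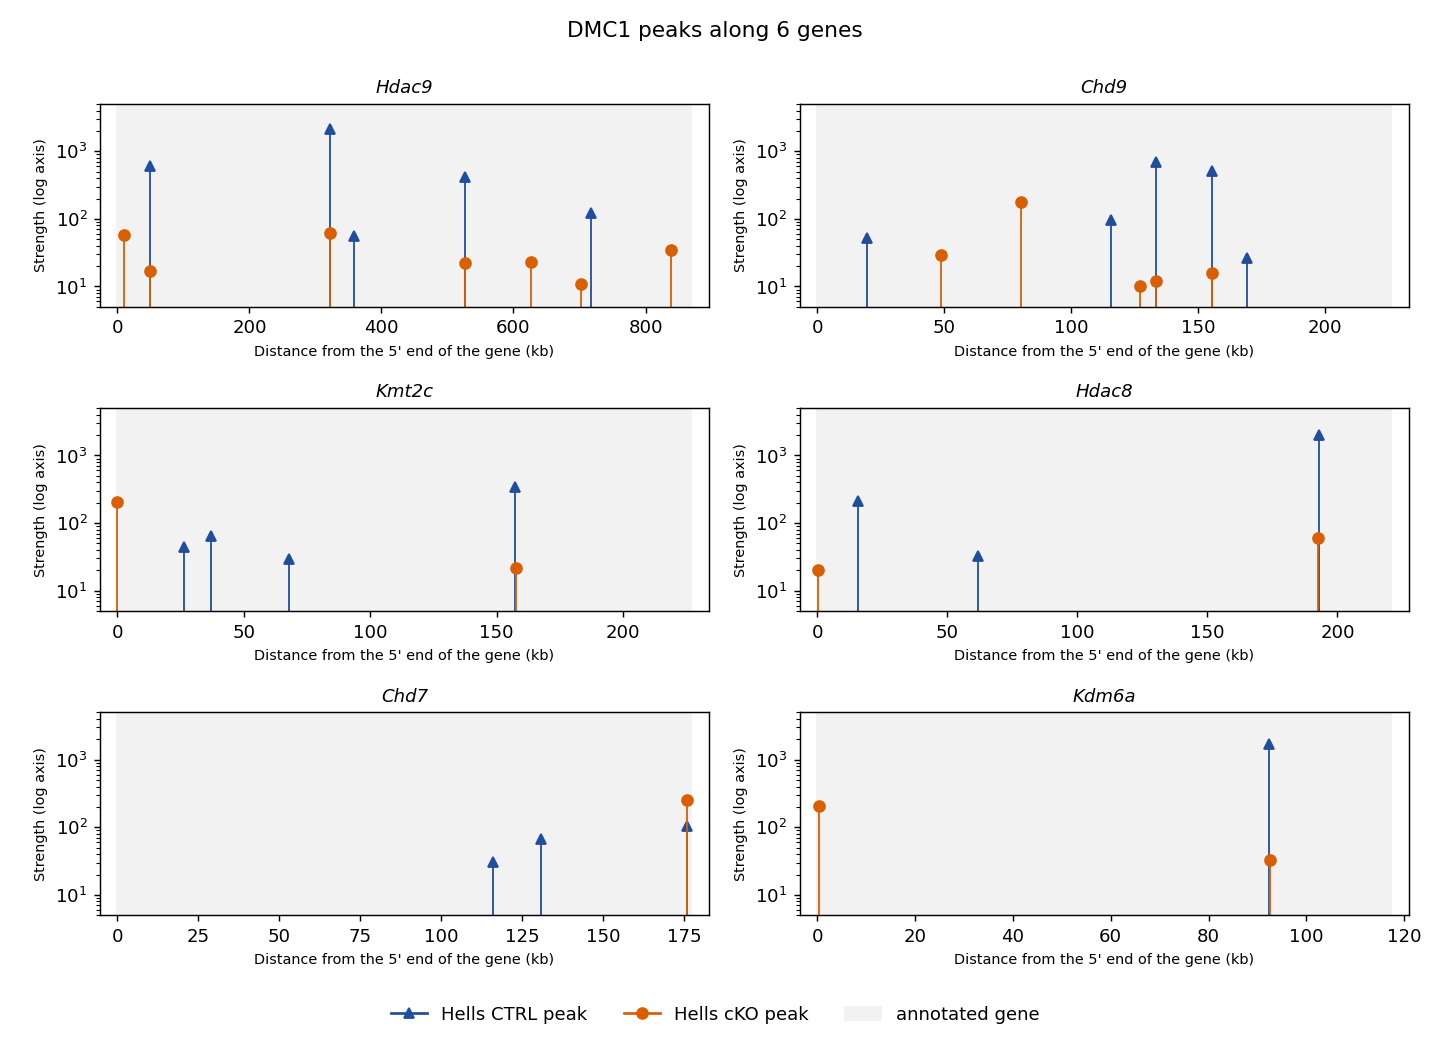
Strength (authors' score, log axis) of every start and body peak against distance from the 5' end of the gene record (kb) in Hdac9, Chd9, Kmt2c, Hdac8, Chd7 and Kdm6a, with blue triangles for Hells CTRL, orange circles for Hells cKO and grey for the annotated gene. In Kmt2c and Kdm6a the strongest Hells cKO peak (205 and 204) stands at the 5' end and the strongest Hells CTRL peak (338 and 1708) lies 157 and 92.4 kb inside, with a weak Hells cKO peak beside it.

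Common peaks were those with centers in both lists whose flanks of 200 bp overlapped, and these genes held 10. Over the whole lists there were 1129. Of the 10, 9 were body peaks and 1 was at a start, so that of the 59 Hells cKO start peaks 1 (1.69%) had a Hells CTRL partner, against 2.12% of all start peaks. The 9 body peaks were 52.9% of the 17 Hells cKO body peaks and 23.7% of the 38 Hells CTRL body peaks, against 16.0% and 9.35% of the body peaks of all protein-coding genes. Strengths at the 8 common peaks led by Hells CTRL were 2132 in that list and 61 in Hells cKO (Hdac9), 2032 and 60 (Hdac8), 1708 and 33 (Kdm6a), 687 and 12 (Chd9), 612 and 17 (Hdac9), 508 and 16 (Chd9), 418 and 22 (Hdac9), and 338 and 22 (Kmt2c). The ratio of deposited strengths therefore ran from 15.4 at Kmt2c to 57.3 at Chd9. Centers were 10 bp apart at the strongest Hdac9 peak and at most 279 bp apart at Kmt2c, within the limit that the rule for common peaks sets.

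At the remaining pair the order was reversed. At the coding exon peak of Chd7 the Hells CTRL strength was 105 and that of Hells cKO was 250, a log2 ratio of Hells cKO to Hells CTRL of 1.25. The promoter peak of Hdac6 had 43 in Hells CTRL and 146 in Hells cKO (chrX:7946410-7949145), a log2 ratio of 1.76, with centers 1 bp apart. Both are CpG-rich for Hells CTRL peaks, with 21 and 33 CpG within 250 bp, while the other 8 had 1 to 8. The median log2 ratio over the 9 common body peaks was -5.08, against -4.85 over all 1129 common peaks, of which 908 were below -1 and 149 above 1. Since the lists were not scaled to each other, the ratios place these peaks among other common peaks and do not give a change in break number.

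Which Hells CTRL body peaks had a Hells cKO partner followed their strength. Of the 8 in the top 10% of the list, 7 had one, against 65.4% of the 583 such peaks over all protein-coding genes. The exception was the Kdm2b peak of 527 (chr5:122896955-122898860). Of the 30 weaker ones, 2 had a partner, the Kmt2c peak of 338, just under the limit at percentile 89.98, and the Chd7 peak, against 2.48% of 4755.

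**Figure D5:**
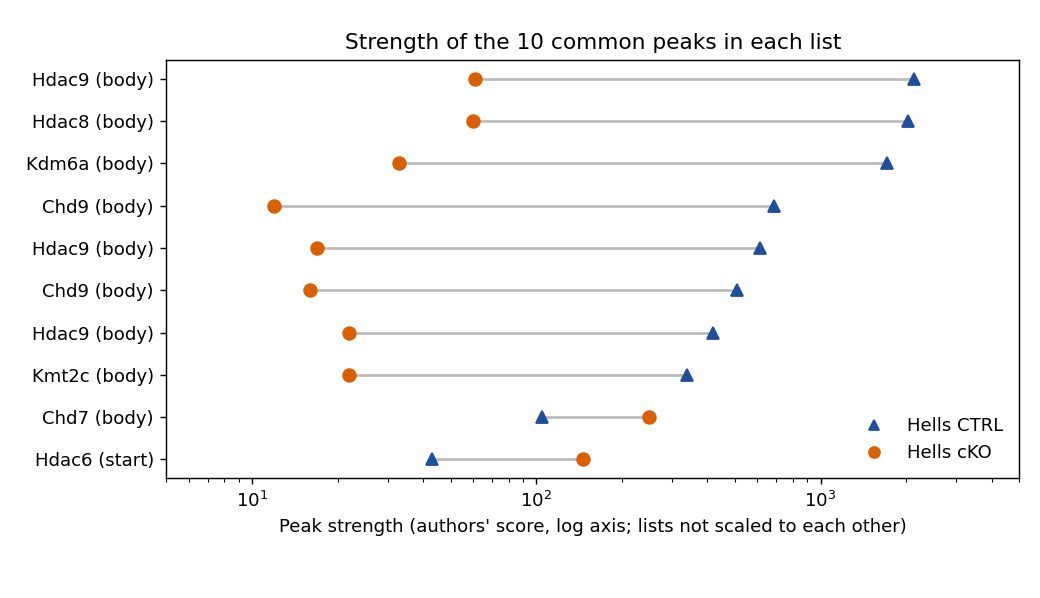
Strength (authors' score, log axis) of the 10 common peaks in the Hells CTRL list (blue triangles) and the Hells cKO list (orange circles), 1 row per peak. Hells CTRL leads at 8 peaks, from 338 and 22 (Kmt2c) to 2132 and 61 (Hdac9), and Hells cKO leads at Chd7 (105 and 250) and Hdac6 (43 and 146).

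Among the 68 genes, 5 are on chromosome X, which has no homolog over most of its length in male meiosis. All 5 (Hdac6, Hdac8, Kdm5c, Kdm6a and Smarca1) had a Hells cKO start peak, against 47.2% of the 948 X-linked protein-coding genes. Strengths were 204 for Kdm6a, 146 for Hdac6, 34 for Smarca1, 27 for Kdm5c and 20 for Hdac8. Peaks on X were stronger than others in both lists, with 24.5% of 736 Hells CTRL peaks and 17.7% of 796 Hells cKO peaks in the top 10%, against 8.98% and 9.67% on autosomes. Ranked among X peaks alone, the Hells CTRL body peaks of Hdac8 and Kdm6a were at percentiles 97.6 and 96.5, and the Hells cKO start peaks of Kdm6a and Hdac6 at 93.2 and 87.6. On autosomes, 49 of 62 genes (79.0%) had a Hells cKO start peak, 1.73 times the share of all autosomal protein-coding genes.

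A second list held 74 genes outside the symbol rule that encode partners in the same complexes or enzymes of the same kind, such as Polycomb subunits, SET domain methyltransferases, sirtuins and BAF subunits. A Hells cKO start peak was found at 63 of them (85.1%), and the median strength of the strongest one per gene was 90, against 45.2% and 48 over all protein-coding genes. Hells, the gene deleted in these mice, had 379 at its own start, Jmjd1c had 349, Atrx had 309 and Setdb2 had 306. None was found for Arid2, Bcl7a, Dpf1, Ehmt2, Mbd3, Men1, Phf2, Rbbp5, Setd1b, Sirt5 and Wdr5. COMPASS subunits were thus found on both sides. Wdr5, Rbbp5, Men1 and Setd1b had none, while Setd1a had 58, Ash2l had 99 and Dpy30 had 170. The list was CpG-rich too, with a median of 60 CpG at the richest start. Hells CTRL start peaks were found at 6 genes (8.11%, against 2.68% of all protein-coding genes), with 790 in Sirt1, 288 in Crebbp, 74 in Atrx, 38 in Suv39h1, 25 in Rbbp7 and 24 in Suv39h2. At the same genes the strongest Hells cKO start peak had 153, 119, 309, 203, 147 and 258. Hells CTRL body peaks were found in 21 of the 74 (28.4%), against 16.2% of all protein-coding genes and close to the 27.9% of the 68 genes.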

How the data were processed

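DMC1 ChIP-SSDS was performed by the authors on whole testis, in 2 replicates of each genotype (Hells CTRL, Hells cKO). They trimmed the reads to 50 bp, mapped them to GRCm38/mm10, kept non-duplicated reads that mapped uniquely, called peaks with MACS and built the final list from the best-ranked peaks of pooled reads, with its size set by the Irreproducible Discovery Rate. The values deposited by the authors are a score for each peak, its strength, which their methods describe as a fragment count normalized to local background and then to library size. All scores are whole numbers, so the last step may be left out or scaled, and the depth is unknown. According to the methods no scaling between genotypes was possible. The 5hMeDIP libraries were not used here.

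The members and gene lists were chosen with earlier results of these data known. Transcript starts and gene records were from GENCODE M21, whose build matches the peaks, and sequence was from GRCm38.p6. The center was the midpoint of the interval, start peaks lay within 1 kb of any start of the gene, and body peaks lay inside the gene record and over 1 kb from each of its starts. Peaks were common when flanks of 200 bp around their centers overlapped. The percentile was the average rank within the list. CpG dinucleotides were counted within 250 bp and the GC box within 100 bp.

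With 1 list per genotype no test was made, and counts and medians are set beside those of all protein-coding genes. Named in full were the 5 strongest and 3 weakest Hells cKO start peaks, every Hells CTRL start peak, the 5 strongest body peaks of each list, every common peak and every gene without a Hells cKO start peak, with sequences for the strongest, the weakest and a middle Hells cKO start peak (the lower of the middle pair with chromosome 18 left out) and the 2 strongest Hells CTRL body peaks, the first of which is also the strongest common peak. The positions and sequence of the Chd7 body peaks are not reported here. Alternatives were the reach to a start, the deposited interval in place of the center, protein-coding transcripts, autosomes, the stronger peaks of each list, other limits of the body, other windows, and the 5' end of the gene record, which was added after seeing the data. The code was tested on simulated peaks and found all those planted at starts and in bodies. Tables were made with pandas 2.3.3 and numpy 2.4.6 under Python 3.11.15, and plots with matplotlib 3.10.9.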

Additional observations from a re-analysis of the deposited data

How the results depend on the processing

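No paired analysis was possible because the replicates of each genotype were pooled into 1 list, and for the same reason no replicate could be left out. Of 60 alternatives to 12 results, 46 left the result within its limits. The count of genes with a Hells cKO start peak ranged from 43 with peaks at or above the median strength of the list to 55 with a reach of 2 kb, beside 54. The count with a Hells CTRL start peak (8) was 13 with a reach of 2 kb, 13 with deposited intervals in place of centers, 4 with protein-coding transcripts and 1 with the 5' end of the gene record, an alternative chosen after seeing the data. With peaks at or above the median strength, the ratio of the member share to that of all protein-coding genes for Hells cKO starts went from 1.76 to 2.04, Hells CTRL body peaks per Mb from 7.69 to 4.45, their median percentile from 52.8 to 78.7, genes with Hells cKO body peaks from 9 to 5 and those peaks per Mb from 3.44 to 1.42. Leaving out the weaker peaks by itself lowers counts and densities and raises the median percentile. With starts counted into the body, Hells cKO body peaks were found in 51 genes, at 12.6 per Mb, since the start peaks then count. Median CpG of genes with a Hells cKO start peak (52.5) was 90.5 in windows of 500 bp on each side. At the 5' end of the gene record it was 40.5. For genes without a Hells cKO start peak (49) these figures were 71 and 30.5. Common peaks numbered 8 to 11. Neither the depth nor the spread between mice can be read from these lists.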
